A study of Mus musculus with 12 samples.

Results

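The genes described here encode the matrix metalloproteinases (Mmp), the secreted proteases with thrombospondin repeats (Adamts), their catalytically inactive relatives (Adamtsl) and the tissue inhibitors of metalloproteinases (Timp), measured by RNA sequencing while mouse fibroblasts were reprogrammed to pluripotency. The rule uses symbols alone and no measured value, taking every Mmp, Adamts, Adamtsl or Timp followed by a number. This gave 51 of the 23420 genes in the deposited count files, namely 23 Mmp, 19 Adamts, 5 Adamtsl and 4 Timp genes. The study followed 4 stages with 3 libraries each. MEF are mouse embryonic fibroblasts, the unsorted starting cells. Stage1 cells had been reprogrammed for 6 days, Stage2 cells for 6 days and a further 4 days, and iPSC are established induced pluripotent stem cells. According to the series text, the cells of every stage but MEF were sorted for green fluorescence from Oct4-GFP, a reporter of the pluripotency gene Pou5f1 (Oct4). All libraries carry the strain label Mixed (C57BL/6 x 129), and no other allele, factor or agent is labelled. The labels do not say whether replicates came from separate animals, cultures or clones, so each p-value measures the spread between these libraries.

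Matrix metalloproteinases are zinc proteases made as inactive precursors. Most are secreted, some are held at the cell surface, and between them they cut collagens, gelatin, elastin, proteoglycans and signalling proteins. Adamts proteases act on proteoglycans such as versican and aggrecan, trim the ends of procollagens, or process single proteins such as von Willebrand factor, and Adamtsl proteins bind the matrix without cutting it. Timps bind the active site of these enzymes and block it, and Timp2 also takes part in activating Mmp2 at the cell surface. Fibroblasts are a major source of all 4 families. Loss of the fibroblast programme and gain of epithelial features are early steps of reprogramming.

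Groups were taken from the titles of the libraries, which also name the deposited counts. The stage given among the characteristics differs from the title in 12 of 12 libraries. Summed levels of 6 pluripotency markers were 4.52 to 5.62 CPM (counts per 1000000 reads in genes, scaled by the trimmed mean of M values) in the libraries titled MEF, and 1611 to 3331 CPM in the others. Summed levels of 8 fibroblast markers were 16455 to 21957 CPM in the libraries titled MEF, 13.8 to 22.3 CPM at Stage1, 86.8 to 135 CPM at Stage2 and 61.1 to 66.0 CPM in iPSC. Both lists therefore go with the titles of the MEF libraries. They do not settle which of the other libraries are Stage1, Stage2 or iPSC, and for these the titles alone were used. The libraries held 8916223 to 19011944 reads in genes. Reads that the counting assigned to no annotated exon, which can lie in introns or between genes, made up 8.86 to 9.42% of reads in MEF. Their share was 38.1 to 45.2% at Stage1, 47.4 to 53.4% at Stage2 and 35.0 to 44.3% in iPSC. MEF replicate 1 differed from the other MEF libraries in sex-linked transcripts, with Xist at 227 CPM against 0.267 and 0 CPM, and Y-linked Ddx3y at 0.752 CPM against 127 and 127 CPM. MEF replicate 3 had the highest summed level of the MEF libraries for Mmp, Adamts, Adamtsl and Timp genes alike.

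In MEF, 22 of the 51 genes averaged at least 10 CPM and 9 averaged at least 100 CPM. At Stage1 only Timp1 and Adamts7 averaged 10 CPM or more, against 8 genes at Stage2 and 7 in iPSC, and none outside MEF averaged 100 CPM. The summed level of the 23 Mmp genes was 1240.2 ± 253 CPM in MEF, 16.2 ± 1.15 CPM at Stage1, 57.4 ± 1.49 CPM at Stage2 and 97.1 ± 2.14 CPM in iPSC. For the 19 Adamts genes the sum was 782 ± 229 CPM in MEF, 49.6 ± 2.45 CPM at Stage1, 109.8 ± 7.03 CPM at Stage2 and 79.9 ± 2.25 CPM in iPSC. The 5 Adamtsl genes summed to 61.7 ± 27.3 CPM in MEF, 7.23 ± 2.02 CPM at Stage1, 18.6 ± 4.13 CPM at Stage2 and 7.78 ± 1.21 CPM in iPSC. The 4 Timp genes summed to 2245 ± 445 CPM in MEF, 44.7 ± 6.28 CPM at Stage1, 62.7 ± 3.89 CPM at Stage2 and 52.1 ± 2.07 CPM in iPSC. All 4 mean sums were lowest at Stage1, although for Adamtsl and Timp the Stage1 libraries overlapped those of iPSC. In iPSC the Mmp sum was above that at Stage2 and the other sums below it. No gene of the 51 was without a count in all libraries, although 9 had no count in any MEF library. In RNA pooled from many cells such as this, fewer cells of a type and less RNA per cell cannot be told apart. MEF alone was unsorted and alone had a low share of reads outside exons. In comparisons with MEF, stage therefore cannot be told apart from sorting or from this difference between libraries.

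**Figure D1:**
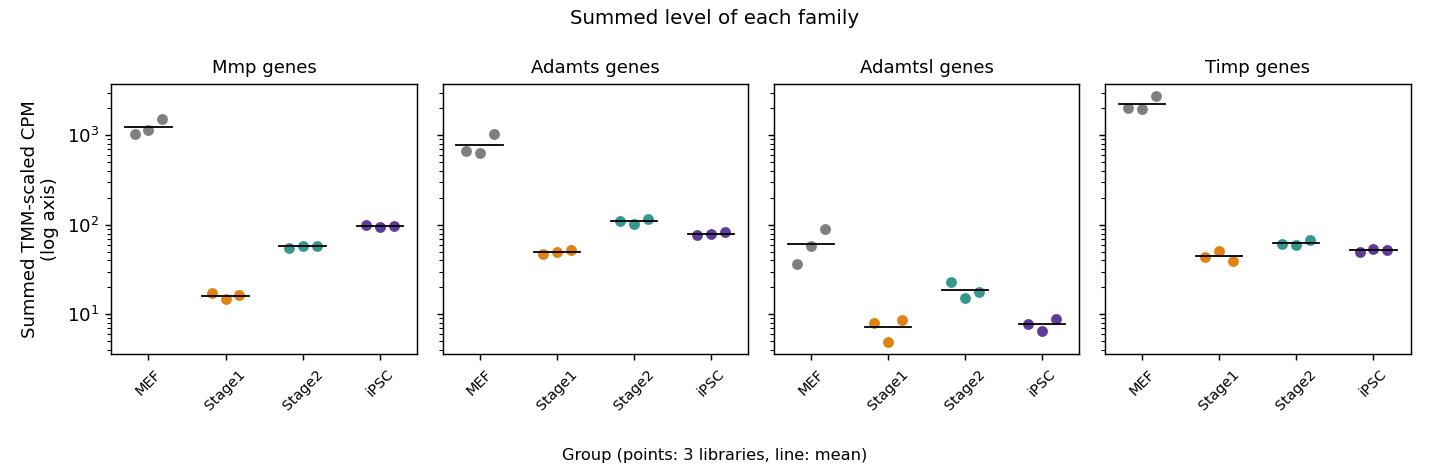
Summed level in CPM (log axis) of the Mmp, Adamts, Adamtsl and Timp genes in MEF, Stage1, Stage2 and iPSC. Each point is a library and each bar the mean of 3 libraries. All 4 families were highest in MEF and had their lowest mean at Stage1, where the Mmp sum averaged 16.2 CPM.

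A gene was tested where enough libraries reached about 0.804 CPM, which kept 43 of the 51 genes and 14770 genes in all. Mmp1b, Mmp7, Mmp8, Mmp20, Mmp21, Mmp27, Adamts13 and Timp4 were not tested. Of the 43, Mmp13 and Mmp28 reached that level in MEF only, so that for them a difference was built into the selection. Mmp10 and Mmp16 reached it in 3 MEF libraries and 1 other library, and Adamts16 and Adamtsl5 in 3 MEF libraries and 2 others. They too passed largely through MEF. In the other direction, Adamts8, Adamts17, Adamts18, Adamts19, Adamts20, Mmp1a and Mmp24 reached it in no MEF library. These passed only through the other stages, which favoured a higher level outside MEF. All of these genes stay in the counts below, where their calls against MEF are not independent of the selection. "Called" below means an adjusted p under 0.05 by the edgeR quasi-likelihood test, adjusted after Benjamini and Hochberg over all genes tested. Log2 fold changes are given with their standard error (SE), and levels as mean ± SD of 3 libraries.

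Between Stage1 and MEF, most of the protease and inhibitor genes fell. At Stage1, 32 of the 43 tested genes were lower than in MEF, 6 were higher and 5 were not called. Over all genes tested, 36.1% were lower and 44.2% higher. The median log2 fold change was -3.71 for the 43 genes and 0.27 for all genes tested. By family, 14 of 17 Mmp, 11 of 18 Adamts, 4 of 5 Adamtsl and 3 of 3 Timp genes were lower. The largest falls were those of Timp2, Mmp2 and Timp3. The genes called higher at Stage1 were Adamts7, Adamts8, Adamts18, Adamts19, Adamts20 and Mmp24, and of these only Adamts7 averaged over 10 CPM. All but Adamts7 passed the filter only through stages other than MEF, so their calls are not independent of the selection. The count of genes called higher was 10 without a filter on low counts and 3 in a fit of these 2 groups alone.

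Between Stage2 and Stage1, part of the family rose, most often to levels still far below MEF. The 22 genes with at least 10 CPM in MEF stood at a median of 2.87% of their MEF mean at Stage1 and 3.45% at Stage2. At Stage2, 17 of the 43 genes were higher than at Stage1 and 4 were lower, while 22 were not called. Over all genes tested, 20.6% were higher and 19.8% lower. The median log2 fold change was 1.05 for the 43 genes and 0.02 for all. Of the 8 fibroblast markers, 6 were also higher at Stage2 and 0 were lower, with a median log2 fold change of 2.32, and their part in the rise of the 17 genes was not tested. The genes with the largest rises were Adamts9, Mmp17 and Timp3, and those lower at Stage2 were Adamts7, Mmp12, Adamts6 and Timp1. By family, 7 of 17 Mmp, 6 of 18 Adamts, 2 of 5 Adamtsl and 2 of 3 Timp genes were higher. The count of lower genes was 2 without Stage1 replicate 2, without Stage2 replicate 3 and with library totals as the scaling. That scaling also moved the share of higher genes among all genes called to 70.6%, against 51.1% here.

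Between iPSC and Stage2, few of the genes differed. In iPSC, Mmp14, Mmp11 and Mmp2 were higher, Adamtsl1, Timp3 and Adamts9 were lower, and 37 were not called. Over all genes tested, 9.21% were higher and 8.87% lower. The median log2 fold change was -0.10 for the 43 genes and 0.04 for all. Of the 8 fibroblast markers, 6 were lower in iPSC than at Stage2 and 0 were higher, with a median log2 fold change of -1.21. The count of lower genes was 5 without MEF replicate 2, 6 without MEF replicate 3, 6 in a fit of these 2 groups alone and 5 with DESeq2. With library totals, 34.1% of all genes called were higher, against 50.9% here.

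Set against Stage1, 15 of the 43 genes were higher in iPSC and 5 were lower, with 21.3% and 18.1% of all genes tested in those directions. Without iPSC replicate 1 or 2 the lower genes numbered 2 and 3. Set against MEF, 31 were lower in iPSC and 7 were higher, with 35.8% and 44.9% of all genes tested lower and higher. Of those higher, Adamts8, Adamts19, Adamts20, Mmp1a and Mmp24 had passed the filter only through stages other than MEF. These comparisons share libraries, so their counts are not independent of each other.

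**Figure D2:**
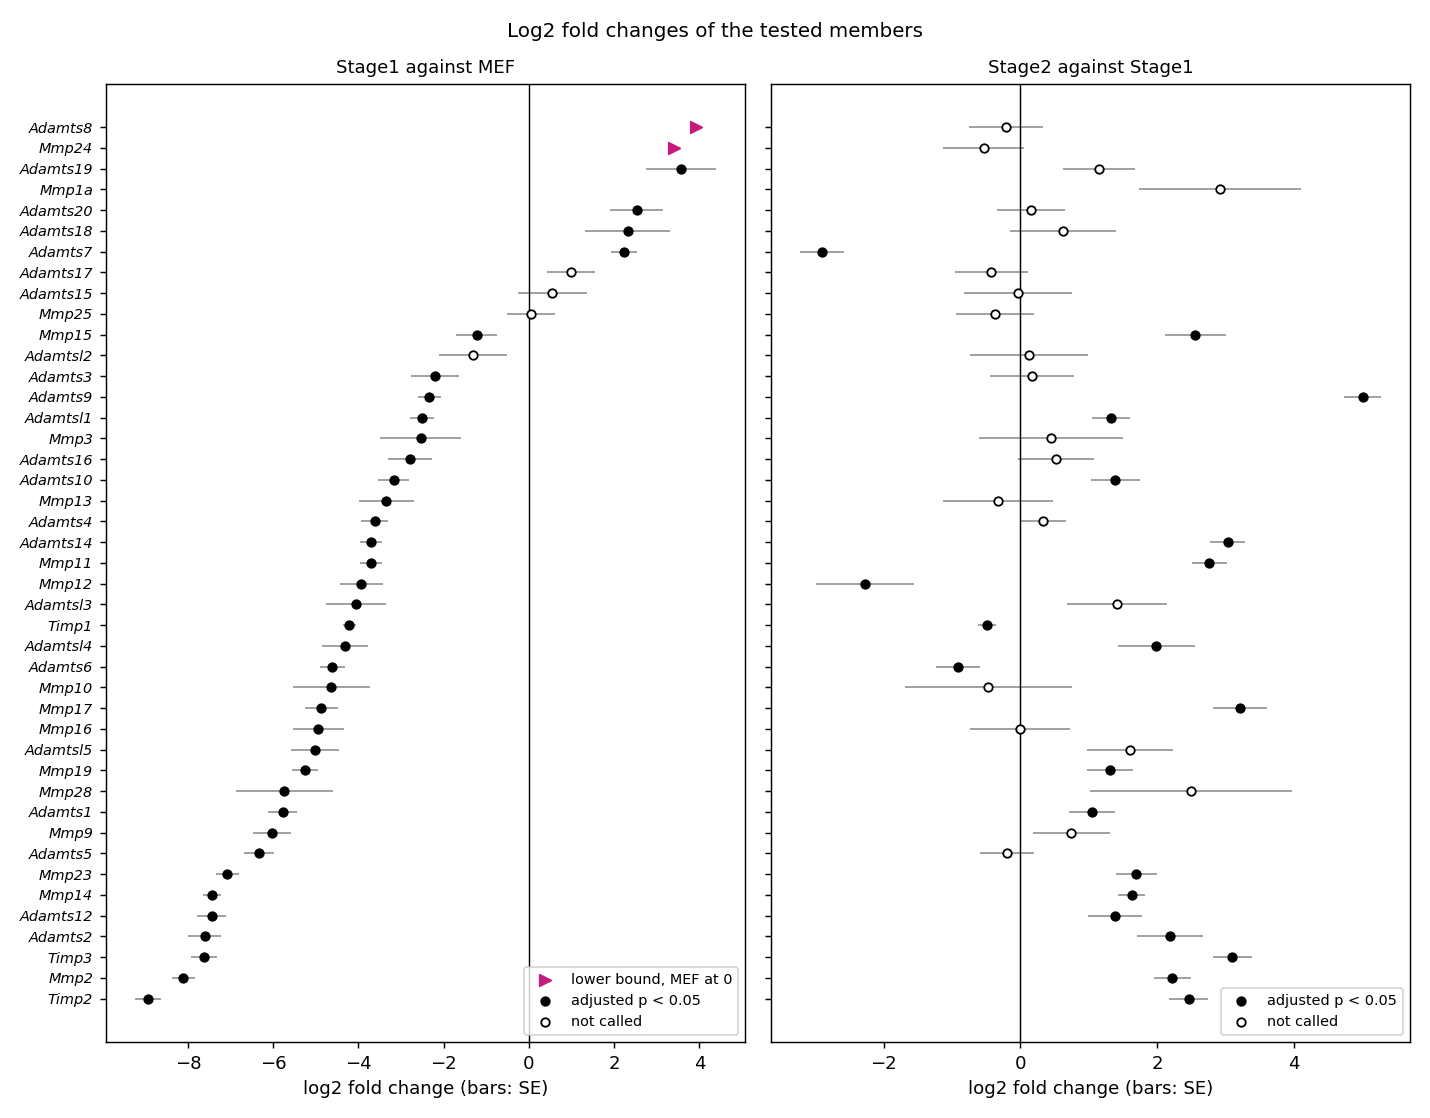
Log2 fold change of each tested gene at Stage1 against MEF (left) and at Stage2 against Stage1 (right). Points are the fitted values with SE bars, filled where called. Triangles are lower bounds for Adamts8 and Mmp24, which had no count in MEF, and Mmp1a has no point on the left because its counts allow no fold. Timp2 stands at -8.94 on the left and Adamts9 at 5.0 on the right.

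Positions below are gene spans in GRCm38 (mm10). The gelatinase Mmp2 (chr8:92827291-92853420, plus strand) cuts denatured collagen and basement membrane collagen, and is activated at the cell surface by Mmp14 together with Timp2. Mmp2 had 325, 428 and 587 CPM in MEF, 1.18, 1.88 and 1.85 CPM at Stage1, 7.43, 7.47 and 7.76 CPM at Stage2 and 14.5, 10.3 and 13.0 CPM in iPSC. Each MEF library lay far above all others, and the Stage1, Stage2 and iPSC libraries formed an ascending order without overlap. Its log2 fold change was -8.11 ± 0.27 (SE) at Stage1 against MEF (edgeR's quasi-likelihood test, adjusted p = 2.69e-14), 2.22 ± 0.27 at Stage2 against Stage1 and 0.74 ± 0.21 in iPSC against Stage2. The last of these calls was lost without Stage2 replicate 1, 2 or 3 or iPSC replicate 1 or 3, with an edgeR quasi-likelihood adjusted p of up to 0.0937.

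Mmp14 (chr14:54431612-54445364, plus strand), a transmembrane collagenase that activates Mmp2, had 465, 432 and 590.5 CPM in MEF, 3.25, 3.13 and 2.19 CPM at Stage1, 9.18, 9.38 and 8.15 CPM at Stage2 and 19.4, 19.7 and 15.1 CPM in iPSC. The 4 stages did not overlap. The log2 fold change was -7.43 ± 0.21 at Stage1 against MEF, 1.63 ± 0.20 at Stage2 against Stage1 and 1.02 ± 0.17 in iPSC against Stage2. The other gelatinase, Mmp9 (chr2:164940780-164955850, plus strand), which neutrophils and macrophages also make, had 22.6, 29.3 and 22.6 CPM in MEF, 0.415, 0 and 0.673 CPM at Stage1, 0.684, 0.564 and 0.647 CPM at Stage2 and 1.01, 1.18 and 1.19 CPM in iPSC. MEF stood above the rest, and no later library exceeded 1.19 CPM. Mmp9 fell at Stage1 against MEF (-6.03 ± 0.44). In iPSC against Stage1 it was called higher (1.58 ± 0.52), a call lost without Stage1 replicate 2 or iPSC replicate 2 or 3 (edgeR quasi-likelihood adjusted p up to 0.0701).

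Of the other membrane-bound enzymes, Mmp15, Mmp16 and Mmp24 are transmembrane proteins like Mmp14, while Mmp17 and Mmp25 are held by a lipid anchor. Mmp17 (chr5:129584169-129611099, plus strand) had 10.9, 15.6 and 27.5 CPM in MEF, 0.761, 0.716 and 0.337 CPM at Stage1, 5.76, 5.57 and 5.89 CPM at Stage2 and 11.1, 9.65 and 8.85 CPM in iPSC. Stage1 was lowest and iPSC came near the lowest MEF library, with overlap between iPSC and MEF. The rise at Stage2 against Stage1 was 3.21 ± 0.40. The difference of iPSC from MEF was -0.88 ± 0.29, and that call was lost without MEF replicate 3 and with library totals as the scaling (edgeR quasi-likelihood adjusted p up to 0.123). Mmp15 averaged 5.70 ± 1.07 CPM in iPSC and 1.45 ± 0.624 CPM in MEF, a log2 fold change of 1.95 ± 0.40, and was called higher at Stage2 against Stage1 (2.56 ± 0.45). Its lower level at Stage1 against MEF (-1.23 ± 0.47) was no longer called without Stage1 replicate 1 or 2, without MEF replicate 3, with library totals, and in a fit of those 2 groups alone (edgeR quasi-likelihood adjusted p up to 0.162). Mmp16 (chr4:17852893-18119145, plus strand) had 10.3, 9.63 and 24.4 CPM in MEF, 0.691, 0.537 and 0.168 CPM at Stage1, 0.195, 1.06 and 0.129 CPM at Stage2 and 0.336, 0.278 and 0.425 CPM in iPSC. Only MEF reached 10 CPM in any library, and Mmp16 was not called between any of the later stages. Mmp25 was under 1 CPM on average at every stage and was called in none of the 5 comparisons.

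Mmp11 (chr10:75923222-75936496, minus strand), stromelysin-3, is cut to its active form inside the cell by furin-like proteases and is typical of stromal cells during tissue remodelling. It had 32.9, 29.8 and 55.9 CPM in MEF, 3.66, 2.24 and 3.11 CPM at Stage1, 19.2, 21.6 and 21.0 CPM at Stage2 and 36.1, 41.2 and 41.8 CPM in iPSC. The iPSC libraries lay within the range of the MEF libraries, and Stage1 was far below both. Mmp11 fell at Stage1 against MEF (-3.71 ± 0.26), rose at Stage2 against Stage1 (2.76 ± 0.25; edgeR's quasi-likelihood test, adjusted p = 3.13e-07) and rose in iPSC against Stage2 (0.94 ± 0.22). In iPSC against MEF the log2 fold change was 0.00 ± 0.21 and not called. Among the 22 genes at 10 CPM or more in MEF, Mmp11 had the highest iPSC level relative to MEF, at 100.5%.

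Of the remaining secreted or surface enzymes, Mmp23 (chr4:155650655-155653384, minus strand), anchored by its N-terminal part, had 105, 147 and 159 CPM in MEF, 1.38, 0.716 and 0.842 CPM at Stage1, 2.83, 2.89 and 4.01 CPM at Stage2 and 3.36, 3.40 and 2.47 CPM in iPSC. Mmp19 (chr10:128790910-128800824, plus strand) had 29.8, 33.2 and 35.5 CPM in MEF, 0.830, 0.537 and 1.18 CPM at Stage1, 2.15, 1.55 and 2.65 CPM at Stage2 and 1.60, 1.04 and 1.62 CPM in iPSC. Every MEF library lay above every other library for both genes. Mmp23 (-7.08 ± 0.27) and Mmp19 (-5.25 ± 0.31) fell at Stage1 against MEF, and both rose at Stage2 (1.70 ± 0.30 and 1.31 ± 0.34). Exons of Mmp19 overlap those of neighbouring genes over 1001 bases, and whether counting used strand is not given in the sources used here. Mmp28, epilysin, had 1 count over the 3 Stage1 libraries against 80 in MEF. Its group means were 1.89 CPM in MEF and at most 0.174 CPM elsewhere.

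A run of 10 Mmp genes lies side by side on chromosome 9 (GRCm38, chr9:7272514-7699585), with no other protein-coding gene starting among them. In order they are Mmp13, Mmp12, Mmp1b, Mmp3, Mmp1a, Mmp10, Mmp8, Mmp27, Mmp20 and Mmp7, which include the collagenases, the stromelysins Mmp3 and Mmp10, the macrophage elastase Mmp12, the tooth enamel protease Mmp20 and the matrilysin Mmp7. Several of them are classic targets of AP-1, a dimer of Fos and Jun proteins. The letters TGAGTCA (an AP-1 site, read on both strands, thus also TGACTCA) occurred in the promoter window of 7 of these 10 genes, namely Mmp1a, Mmp1b, Mmp3, Mmp7, Mmp10, Mmp12 and Mmp13. It occurred in 0 of the 26 other members that had a window, and in 5.95% of 27025 genes. Windows are RefSeq promoters of GRCm38.p6, from 250 bases before to 50 after a gene's start, and were found for 36 of the 51 genes. The cluster's windows held 0 to 7 CpG dinucleotides (median 1.5), against 2 to 46 (median 22) in the other members and a median of 8 in all genes. Windows of 4 cluster genes are shown as examples that carry the site, and those of Mmp11 and Adamts9 as examples that hold none. Absence of the site does not mark genes by their course. Timp2, Timp3 and Mmp14, among others, also hold none and fell at Stage1 against MEF, as did Mmp11 and Adamts9. The RefSeq start of Mmp11 lies inside the gene span given above. Capitals mark the AP-1 letters.
Mmp13, chr9:7272264-7272563, plus strand: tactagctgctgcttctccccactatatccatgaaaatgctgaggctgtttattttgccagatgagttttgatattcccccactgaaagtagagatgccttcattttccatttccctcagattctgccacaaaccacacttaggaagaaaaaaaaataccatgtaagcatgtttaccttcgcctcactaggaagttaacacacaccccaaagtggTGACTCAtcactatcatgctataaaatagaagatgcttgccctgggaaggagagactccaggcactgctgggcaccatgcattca
Mmp3, chr9:7445572-7445871, plus strand: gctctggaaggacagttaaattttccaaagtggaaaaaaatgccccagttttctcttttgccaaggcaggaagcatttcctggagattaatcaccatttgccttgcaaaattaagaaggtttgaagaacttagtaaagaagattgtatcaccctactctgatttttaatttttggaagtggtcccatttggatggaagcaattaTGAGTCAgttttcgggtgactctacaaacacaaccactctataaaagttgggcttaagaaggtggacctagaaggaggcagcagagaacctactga
Mmp10, chr9:7502092-7502391, plus strand: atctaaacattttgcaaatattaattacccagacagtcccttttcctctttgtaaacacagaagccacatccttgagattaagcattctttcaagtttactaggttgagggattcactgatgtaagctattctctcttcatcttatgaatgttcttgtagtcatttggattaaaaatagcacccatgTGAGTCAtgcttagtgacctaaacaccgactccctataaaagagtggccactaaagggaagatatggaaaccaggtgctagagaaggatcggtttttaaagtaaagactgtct
Mmp12, chr9:7347124-7347423, plus strand: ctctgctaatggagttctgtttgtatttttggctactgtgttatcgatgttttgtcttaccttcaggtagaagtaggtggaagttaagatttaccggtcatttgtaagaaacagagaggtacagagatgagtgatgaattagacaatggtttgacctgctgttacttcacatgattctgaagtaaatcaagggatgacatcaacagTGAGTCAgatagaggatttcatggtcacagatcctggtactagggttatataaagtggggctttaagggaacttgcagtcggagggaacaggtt
Mmp11, chr10:75932453-75932752, minus strand: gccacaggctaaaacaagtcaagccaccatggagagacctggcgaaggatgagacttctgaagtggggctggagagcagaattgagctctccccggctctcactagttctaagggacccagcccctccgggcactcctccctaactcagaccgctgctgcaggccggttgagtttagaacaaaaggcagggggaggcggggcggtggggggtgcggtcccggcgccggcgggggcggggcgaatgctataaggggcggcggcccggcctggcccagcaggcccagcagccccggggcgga
Adamts9, chr6:92943485-92943784, minus strand: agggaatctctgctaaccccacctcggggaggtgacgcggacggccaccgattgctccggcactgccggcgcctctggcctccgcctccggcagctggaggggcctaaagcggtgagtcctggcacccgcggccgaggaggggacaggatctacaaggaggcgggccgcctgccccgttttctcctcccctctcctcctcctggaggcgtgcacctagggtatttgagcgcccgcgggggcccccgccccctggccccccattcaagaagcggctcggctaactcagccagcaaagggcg

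The motif started 35 bases before the start site in Mmp13, 46 before in Mmp3, 63 before in Mmp10 and 44 before the downstream start of Mmp12, in windows with 1, 1, 2 and 3 CpG dinucleotides. The windows of Mmp11 and Adamts9 held 19 and 25. A match of letters describes the window and says nothing of binding. The octamer ATGCAAAT, to which Oct4 and its relatives bind, was in 0 of the 36 windows and in 1.97% of all genes.

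Of the 10 cluster genes, 5 were tested. Mmp12 (chr9:7344381-7369499, plus strand) had 22.8, 11.7 and 12.5 CPM in MEF, 1.04, 0.984 and 1.01 CPM at Stage1, 0.195, 0.423 and 0 CPM at Stage2 and 0, 0.278 and 0.340 CPM in iPSC. It was highest in MEF and lowest at Stage2 and in iPSC, and it was the only Mmp gene called lower at Stage2 against Stage1 (-2.27 ± 0.71). That call was lost without Stage2 replicate 3 (edgeR quasi-likelihood adjusted p = 0.0762). Mmp10 averaged 0.194 ± 0.209 CPM at Stage1 against 5.48 ± 3.33 CPM in MEF. Mmp13 averaged 0.301 ± 0.0815 CPM at Stage1 against 3.06 ± 2.22 CPM in MEF. Mmp3 averaged 0.403 ± 0.229 CPM at Stage1 against 2.36 ± 2.57 CPM in MEF. All 3 were called lower at Stage1, with log2 fold changes of -4.63 ± 0.90, -3.34 ± 0.64 and -2.54 ± 0.95 for Mmp10, Mmp13 and Mmp3, and none was called between the later stages. For Mmp10 and Mmp13, which passed the filter largely or only through MEF, the selection favoured a lower level at Stage1. For Mmp3 the call was lost without Stage1 replicate 1 or 3 or without MEF replicate 2 (edgeR quasi-likelihood adjusted p up to 0.348). Macrophage markers summed to 9.01 to 15.1 CPM at Stage1 and 118 to 126 CPM in MEF. Of the 7 tested, 6 were lower at Stage1, against 36.1% of all genes tested. Mmp9 and Mmp12, which macrophages make, were lower too. The part of macrophages in these differences was not tested.

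The 7 AP-1 subunit genes were all lower at Stage1 than in MEF, with a median log2 fold change of -2.69 against 0.27 over all genes tested. Of all genes tested, 36.1% were lower in that comparison. Fosl2 averaged 2.76 ± 0.785 CPM at Stage1 against 205 ± 16.1 CPM in MEF, and Jun 9.55 ± 3.77 against 58.5 ± 6.06 CPM. At Stage2 against Stage1, 5 of the 7 were higher, against 20.6% of all genes tested, and Fosb and Fosl1 were not called. Fos averaged 56.5 ± 12.5 CPM at Stage2 against 11.4 ± 10.4 CPM at Stage1. In iPSC against Stage2, Fos, Fosb, Jun and Junb were lower, as were 8.87% of all genes tested. Of the 5 tested cluster genes, Mmp12 was lower at Stage2 than at Stage1, and Mmp1a, Mmp3, Mmp10 and Mmp13 were called in neither of these later comparisons.

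**Figure D3:**
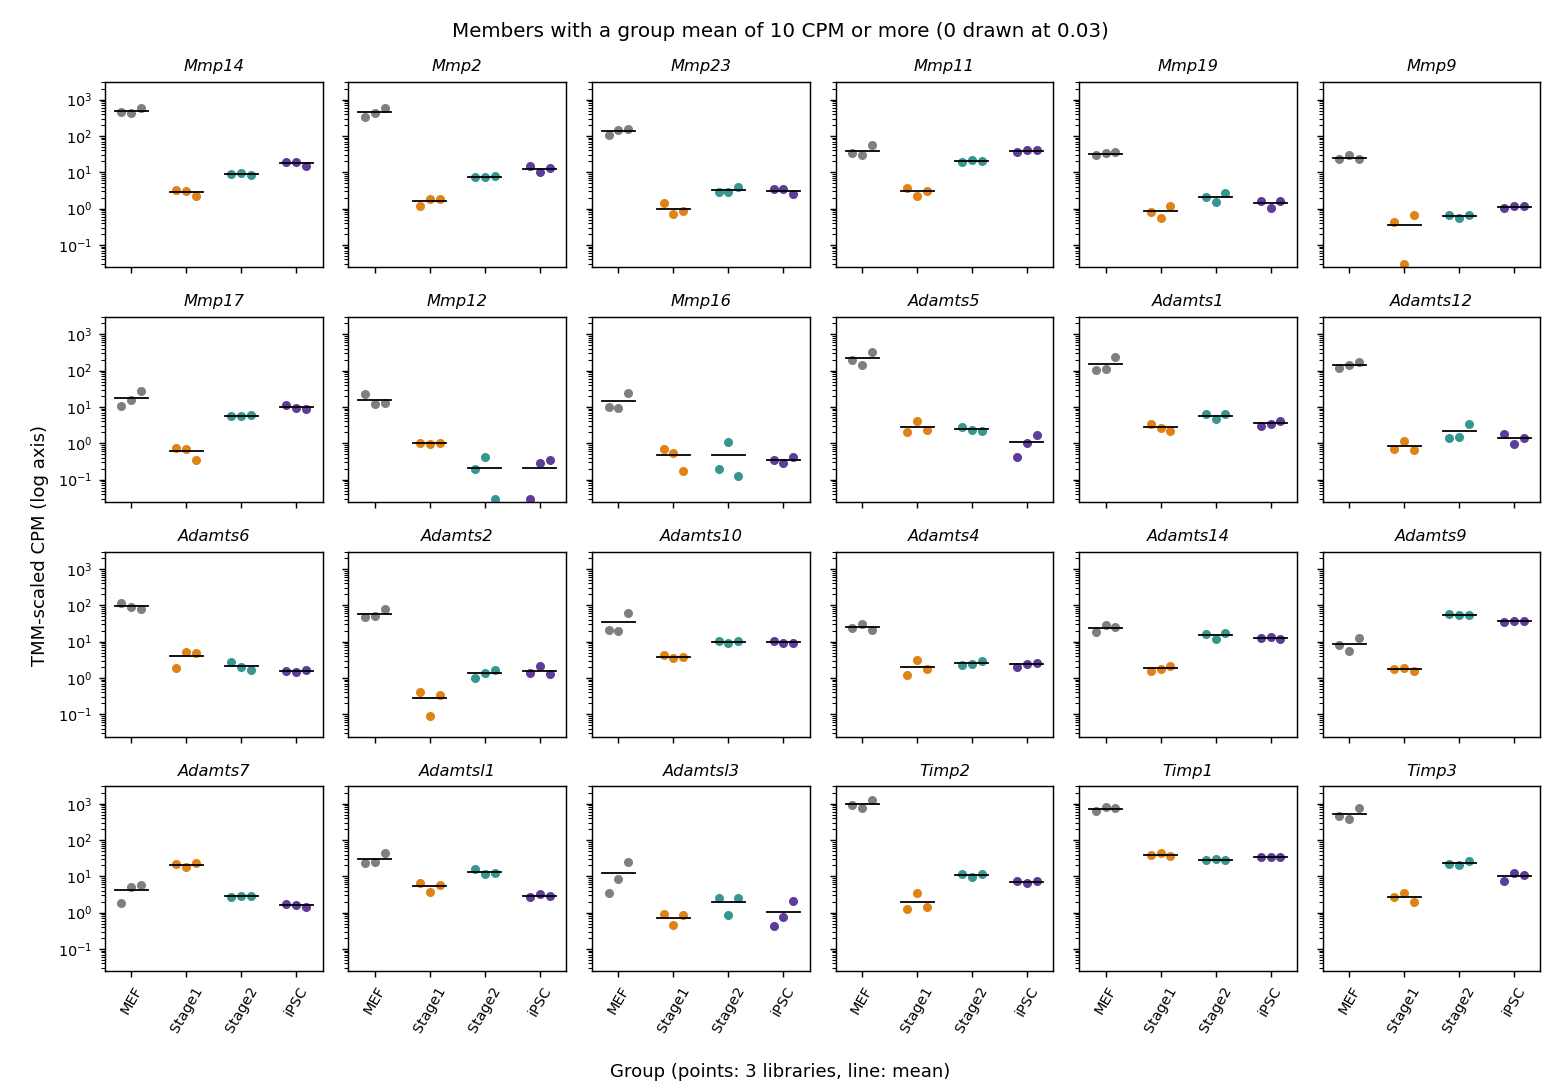
Level in CPM (log axis) of each gene that averaged at least 10 CPM in a group, by stage. Points are libraries, short lines mark the group means, and a value of 0 is drawn at 0.03. Most genes are far lower at Stage1 than in MEF, whereas Adamts7 is highest at Stage1, Adamts9 at Stage2 and Mmp11 is as high in iPSC as in MEF.

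Several Adamts proteases cut versican and aggrecan, among them Adamts1, Adamts4 and Adamts5. Adamts1 (chr16:85793827-85803113, minus strand) had 103, 112 and 244 CPM in MEF, 3.39, 2.69 and 2.19 CPM at Stage1, 6.25, 4.80 and 6.27 CPM at Stage2 and 3.02, 3.40 and 4.17 CPM in iPSC. Adamts5 (chr16:85856173-85901828, minus strand), its neighbour on the chromosome, had 194, 144 and 329 CPM in MEF, 2.07, 4.03 and 2.27 CPM at Stage1, 2.74, 2.33 and 2.2 CPM at Stage2 and 0.420, 1.04 and 1.70 CPM in iPSC. Adamts4 (chr1:171250421-171260637, plus strand) had 23.6, 30.7 and 20.5 CPM in MEF, 1.24, 3.13 and 1.77 CPM at Stage1, 2.34, 2.40 and 2.85 CPM at Stage2 and 2.02, 2.43 and 2.64 CPM in iPSC. Every MEF library lay above every later library for all 3 genes, and MEF replicate 3 was the highest for Adamts1. They fell at Stage1 against MEF, Adamts1 by a log2 fold change of -5.78 ± 0.33, Adamts5 of -6.33 ± 0.36 and Adamts4 of -3.62 ± 0.31. Adamts1 was called higher at Stage2 against Stage1 (1.05 ± 0.33), although not without Stage1 replicate 2 or 3 or Stage2 replicate 1 or 3 (edgeR quasi-likelihood adjusted p up to 0.0759). Adamts5 was called lower in iPSC against Stage1 (-1.38 ± 0.46), although not without Stage1 replicate 2, without iPSC replicate 1 or 2, or with no filter on low counts (up to 0.119 in the same test). Adamts4 was called in neither of these comparisons.

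Adamts9 (chr6:92772699-92943492, minus strand), which cuts versican and is needed in the mouse embryo, followed another course. It had 8.02, 5.42 and 12.7 CPM in MEF, 1.80, 1.88 and 1.52 CPM at Stage1, 57.6, 55.7 and 54.3 CPM at Stage2 and 34.5, 36.9 and 36.9 CPM in iPSC. Stage2 and iPSC lay above MEF without overlap, and Stage1 lay below it. Adamts9 fell at Stage1 against MEF (-2.33 ± 0.28) and rose at Stage2 against Stage1 (5.0 ± 0.28; edgeR's quasi-likelihood test, adjusted p = 9.85e-10), the largest rise of the 43 genes in that comparison. In iPSC it remained above MEF (2.04 ± 0.23). Its lower level in iPSC than at Stage2 (-0.63 ± 0.21) was called, but the call was lost without any single library of Stage1, Stage2 or iPSC (edgeR quasi-likelihood adjusted p up to 0.177). Exons of Adamts9 overlap those of A730049H05Rik and Gm15737, on the opposite strand, over 1805 bases. Its substrate gene Vcan averaged 45.3 ± 13.9 CPM at Stage1 against 264 ± 19.6 CPM in MEF, and was higher at Stage2 than at Stage1 (1.32 ± 0.18).

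Adamts7 (chr9:90163069-90208071, plus strand), a protease of cartilage oligomeric matrix protein that has also been studied in vascular smooth muscle, was the 1 tested gene of the 43 whose highest level was at Stage1. It had 1.88, 5.21 and 5.91 CPM in MEF, 21.2, 17.9 and 23.7 CPM at Stage1, 2.64, 2.89 and 2.85 CPM at Stage2 and 1.76, 1.60 and 1.45 CPM in iPSC. The Stage1 libraries stood above all others without overlap. Adamts7 was higher at Stage1 than in MEF (2.22 ± 0.31; edgeR's quasi-likelihood test, adjusted p = 3.31e-06), lower at Stage2 than at Stage1 (-2.90 ± 0.32) and lower in iPSC than in MEF (-1.48 ± 0.35). All 3 calls held in each alternative that was run. Adamts12 (chr15:11064790-11349231, plus strand), its closest relative, did the opposite at Stage1. It had 121, 143 and 174 CPM in MEF, 0.691, 1.16 and 0.673 CPM at Stage1, 1.37, 1.48 and 3.49 CPM at Stage2 and 1.76, 0.972 and 1.36 CPM in iPSC. It fell at Stage1 against MEF (-7.44 ± 0.34), and its rise at Stage2 against Stage1 (1.38 ± 0.39) was not called without Stage2 replicate 3 (edgeR quasi-likelihood adjusted p = 0.128). Their substrate gene Comp averaged under 1 CPM at each stage.

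The procollagen N-proteinases Adamts2, Adamts3 and Adamts14 remove the N-terminal propeptide of fibrillar procollagens, and Adamts3 also processes Vegfc. Adamts2 (chr11:50602084-50807573, plus strand) had 46.4, 50.7 and 78.8 CPM in MEF, 0.415, 0.0895 and 0.337 CPM at Stage1, 0.977, 1.34 and 1.68 CPM at Stage2 and 1.34, 2.15 and 1.28 CPM in iPSC. Adamts14 (chr10:61197112-61273438, minus strand) had 18.5, 28.5 and 25 CPM in MEF, 1.59, 1.79 and 2.19 CPM at Stage1, 15.8, 11.9 and 17.8 CPM at Stage2 and 12.5, 13.1 and 11.6 CPM in iPSC. At Stage1 both were below every other group. Adamts14 came back further, at 63.1% of its MEF mean at Stage2, against 2.27% for Adamts2. The rise at Stage2 against Stage1 was 3.03 ± 0.26 for Adamts14 and 2.19 ± 0.49 for Adamts2. Adamts3 averaged 0.652 ± 0.383 CPM at Stage1 against 3.0 ± 0.302 CPM in MEF, was called lower there (-2.2 ± 0.56) and was not called between later stages. Of their collagen substrates, Col1a1 averaged 1.46 ± 0.181 CPM at Stage1 against 2897 ± 663 CPM in MEF, and at Stage2 it was higher than at Stage1 (3.81 ± 0.28).

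Adamts6 and Adamts10 are linked to fibrillin microfibrils. Adamts10 (chr17:33524204-33553782, plus strand) had 21.3, 20.0 and 62.5 CPM in MEF, 4.29, 3.49 and 3.70 CPM at Stage1, 10.5, 9.45 and 10.2 CPM at Stage2 and 10.8, 9.37 and 9.19 CPM in iPSC. MEF replicate 3 was well above the other MEF libraries, and all MEF libraries stood above the rest. Adamts6 (chr13:104287835-104496695, plus strand) had 118, 90.5 and 81.9 CPM in MEF, 1.94, 5.28 and 4.80 CPM at Stage1, 2.74, 2.04 and 1.62 CPM at Stage2 and 1.60, 1.46 and 1.70 CPM in iPSC. Adamts10 was higher at Stage2 than at Stage1 (1.38 ± 0.36), whereas Adamts6 was called lower (-0.91 ± 0.32). The call for Adamts6 was lost without Stage1 replicate 2 or 3, without Stage2 replicate 2 or 3, with library totals, and in a fit of those 2 groups alone (edgeR quasi-likelihood adjusted p up to 0.165). Fbn1, which encodes fibrillin-1, averaged 5.77 ± 1.1 CPM at Stage1 against 1586 ± 66.5 CPM in MEF. Adamts16 averaged 0.608 ± 0.0946 CPM at Stage1 against 4.31 ± 1.48 CPM in MEF and was called lower.

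Adamtsl proteins carry the thrombospondin repeats without the protease domain. Adamtsl1 (chr4:85514172-86428385, plus strand) had 22.7, 24.9 and 42.8 CPM in MEF, 6.43, 3.67 and 5.81 CPM at Stage1, 16.3, 11.4 and 12.5 CPM at Stage2 and 2.77, 3.19 and 2.81 CPM in iPSC. It was lower at Stage1 than in MEF (-2.50 ± 0.28), higher at Stage2 than at Stage1 (1.32 ± 0.28) and lower in iPSC than at Stage2 (-2.18 ± 0.29; edgeR's quasi-likelihood test, adjusted p = 1.39e-04), the largest fall of the 43 genes in that last comparison. Its call in iPSC against Stage1 (-0.86 ± 0.30) was lost without Stage1 replicate 1 or 3, without any 1 of the iPSC libraries, and with library totals (up to 0.123 in the same edgeR test). Adamtsl3 (chr7:82335694-82614450, plus strand) had 3.38, 8.62 and 24.8 CPM in MEF, 0.899, 0.447 and 0.842 CPM at Stage1, 2.54, 0.846 and 2.59 CPM at Stage2 and 0.420, 0.764 and 2.04 CPM in iPSC. Here 1 library, MEF replicate 3, held most of the MEF signal. Adamtsl3 (-4.06 ± 0.70), Adamtsl4 (-4.32 ± 0.53) and Adamtsl5 (-5.02 ± 0.56) were lower at Stage1 than in MEF. Without MEF replicate 3 the log2 fold change of Adamtsl3 was -3.03. Adamtsl4 was called higher at Stage2 against Stage1 (1.99 ± 0.57), a call lost without Stage1 replicate 1 (edgeR quasi-likelihood adjusted p = 0.0523). Adamtsl2 was called in 1 of the 5 comparisons, as lower in iPSC than in MEF (-2.77 ± 0.93), and not without MEF replicate 3 (edgeR quasi-likelihood adjusted p = 0.055).

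Of the 4 inhibitors, Timp1, Timp2 and Timp3 were tested. Timp2 (chr11:118301069-118355740, minus strand), the partner of Mmp14 in activating Mmp2, had 936, 747 and 1237 CPM in MEF, 1.24, 3.40 and 1.43 CPM at Stage1, 11.7, 9.38 and 11.7 CPM at Stage2 and 7.39, 6.46 and 7.48 CPM in iPSC. Timp3 (chr10:86300372-86349506, plus strand), which stays bound to the matrix and also blocks Adam17 and several Adamts proteases, had 469, 382 and 755 CPM in MEF, 2.70, 3.40 and 2.02 CPM at Stage1, 22.2, 20.2 and 27.0 CPM at Stage2 and 7.56, 12.4 and 11.2 CPM in iPSC. Timp1 (chrX:20870166-20874735, plus strand), a soluble inhibitor that acts poorly on membrane-bound Mmps, had 618, 825 and 766 CPM in MEF, 39.3, 44.5 and 35.6 CPM at Stage1, 27.7, 29.5 and 27.9 CPM at Stage2 and 34.7, 34.8 and 34.1 CPM in iPSC. For all 3, every MEF library lay far above every other library. Timp1 kept 5.4% of its MEF mean at Stage1, against 0.505% for Timp3 and 0.208% for Timp2.

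At Stage1 against MEF the log2 fold change was -8.94 ± 0.31 for Timp2 (edgeR's quasi-likelihood test, adjusted p = 4.55e-14), -7.63 ± 0.31 for Timp3 and -4.21 ± 0.15 for Timp1. At Stage2 against Stage1, Timp2 (2.46 ± 0.29) and Timp3 (3.10 ± 0.28) were higher. Timp1 was called slightly lower (-0.49 ± 0.14), but not without Stage1 replicate 2 or with library totals (edgeR quasi-likelihood adjusted p up to 0.0999). In iPSC, Timp3 was lower than at Stage2 (-1.15 ± 0.24) and Timp2 and Timp1 were not called. Per kilobase of exon, Timp1 was the highest of the 51 genes at every stage, with 829 CPM per kilobase in MEF, 44.8 at Stage1, 31.9 at Stage2 and 38.9 in iPSC. The next gene per kilobase was Timp2 in MEF (249.9), Adamts7 at Stage1 (3.34), and Mmp11 both at Stage2 (7.43) and in iPSC (14.3). Timp1 is X-linked and lies within Syn1, and MEF replicate 1, the MEF library with Xist, had the lowest Timp1 level of the 3. That library was also the lowest of the MEF libraries for autosomal genes such as Mmp2, Mmp23 and Adamts12, and the highest for Adamts6. Timp3 lies within Syn3, whose exons overlap it over 1733 bases. Timp4 had no count in MEF and averaged at most 0.321 CPM elsewhere.

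The decline of these genes was set beside that of the 8 fibroblast markers, as the percentage of the MEF mean. The markers stood at 0.0169 to 4.56% (median 0.177%) at Stage1, 0.257 to 4.37% (median 0.955%) at Stage2 and 0 to 2.43% (median 0.265%) in iPSC. The 22 genes with at least 10 CPM in MEF stood at 0.208 to 17.6% (median 2.87%) at Stage1, 1.09 to 63.1% (median 3.45%) at Stage2 and 0.475 to 100.5% (median 3.24%) in iPSC. At Stage1 the lowest of these genes was Timp2 (0.208%), followed by Mmp2 (0.366%), and the highest was Adamtsl1 (17.6%). These percentages share the MEF libraries and carry no test, and the part of fibroblast transcripts in the fall of these genes at Stage1, or in their rise at Stage2, was not tested. The markers and these genes were not matched for their level in MEF, where Col1a2 averaged 6897 CPM and Mmp16 14.8 CPM. With 10, 6 and 2 counts at Stage1, Mmp16 stood at 3.15%, so a few reads can set the percentage of a low gene.

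**Figure D4:**
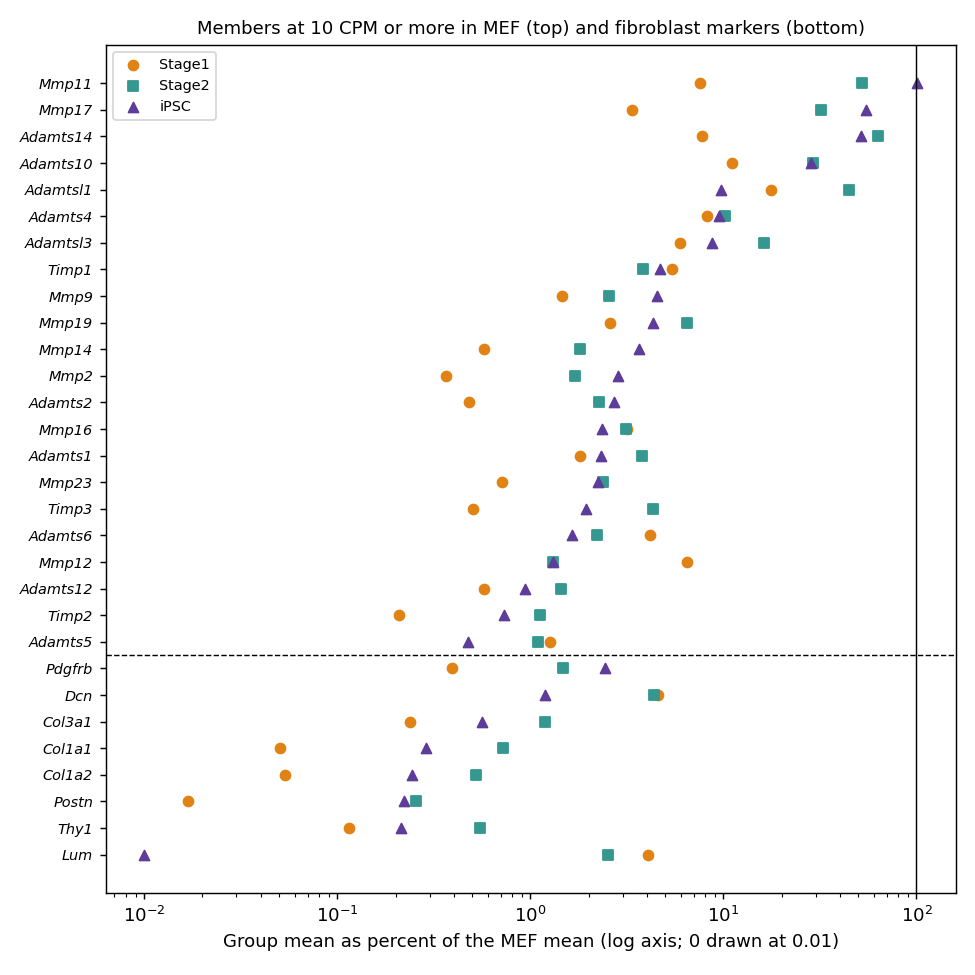
Level at Stage1, Stage2 and in iPSC as a percentage of the MEF mean (log axis), for the 22 genes with at least 10 CPM in MEF and the 8 fibroblast markers. Each point is a gene. Timp2 has the lowest Stage1 point of the 22 genes and Mmp11 the highest iPSC point.

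A group of low-level genes was higher outside MEF. They had passed the filter only through stages other than MEF, so the selection favoured this difference. Adamts8 had 0 CPM in all 3 MEF libraries, 1.11, 1.07 and 1.26 CPM at Stage1, 0.977, 1.48 and 0.517 CPM at Stage2 and 1.76, 0.972 and 0.851 CPM in iPSC. Its pooled level at Stage1 was 15.1-fold that in MEF, taking a floor of 3 counts over the MEF libraries. This fold leaves out the counting error at Stage1, as do the next ones for their higher group. Mmp24 had 0 CPM in all 3 MEF libraries, 0.484, 0.626 and 1.35 CPM at Stage1, 0.684, 0.423 and 0.582 CPM at Stage2 and 0.924, 1.11 and 0.765 CPM in iPSC. With the same floor, its pooled level was 10.5-fold that in MEF at Stage1 and 12.5-fold in iPSC. Mmp1a had 0 CPM in all 3 MEF libraries, 0.0691, 0 and 0.0842 CPM at Stage1, 0.782, 0.141 and 0.517 CPM at Stage2 and 0.924, 0.0694 and 0.765 CPM in iPSC. With the same floor, its pooled iPSC level was 7.27-fold that in MEF, while iPSC replicate 2 held 1 count. No library reached 2 CPM for any of these 3 genes. Adamts19 had 0, 0 and 0.121 CPM in MEF, 0.622, 0.805 and 0.673 CPM at Stage1, 1.66, 1.13 and 1.88 CPM at Stage2 and 1.60, 1.60 and 1.11 CPM in iPSC. MEF held 2 counts in all. The pooled ratio at Stage1 was 13.7, with a 95% counting interval of 3.43 to 119. Adamts20, which cuts versican in mouse melanoblast development, was called higher at Stage1 (2.53 ± 0.62) and in iPSC (2.25 ± 0.63) than in MEF. Adamts18 was called higher at Stage1 (2.31 ± 1.00), a call lost without Stage1 replicate 1 or 3, Stage2 replicate 1, iPSC replicate 1 or MEF replicate 1 or 2 (edgeR quasi-likelihood adjusted p up to 0.14). Mmp1a and Mmp1b are close copies whose reads may be split between them.

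Reads from outside exons moved with the same stages. As a measure of such background, chosen after values had been seen, 1088 olfactory receptor genes, which these cells are not known to use, were averaged. Their mean level was 0.0214 to 0.0382 CPM per kilobase of exon at Stage1, 0.0285 to 0.0542 at Stage2, 0.0154 to 0.0486 in iPSC and 0.00166 to 0.00178 in MEF. On the same scale Adamts8 stood at 0.249 at Stage1, 0.215 at Stage2 and 0.259 in iPSC. Mmp24 stood at 0.175, 0.120 and 0.199 in the same stages, and Adamts20 at 0.149, 0.165 and 0.124. Others were nearer the olfactory means. Adamts19 stood at 0.0499, 0.111 and 0.102, Adamts18 at 0.0739, 0.114 and 0.0328, and Mmp1a at 0.0252, 0.237 and 0.290. Mmp1a at Stage1 and Adamts18 in iPSC lay within the range of the olfactory means, and Adamts19 at Stage1 lay little above it. The untested Timp4, at 0.0286, 0.0545 and 0.00956, was close to the highest olfactory mean at Stage2 and below it at Stage1 and in iPSC. Adamts8 and Mmp24 also overlap exons of other genes, over 489 and 637 bases. The part of background reads in the rises of low-level genes was not tested.

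**Figure D5:**
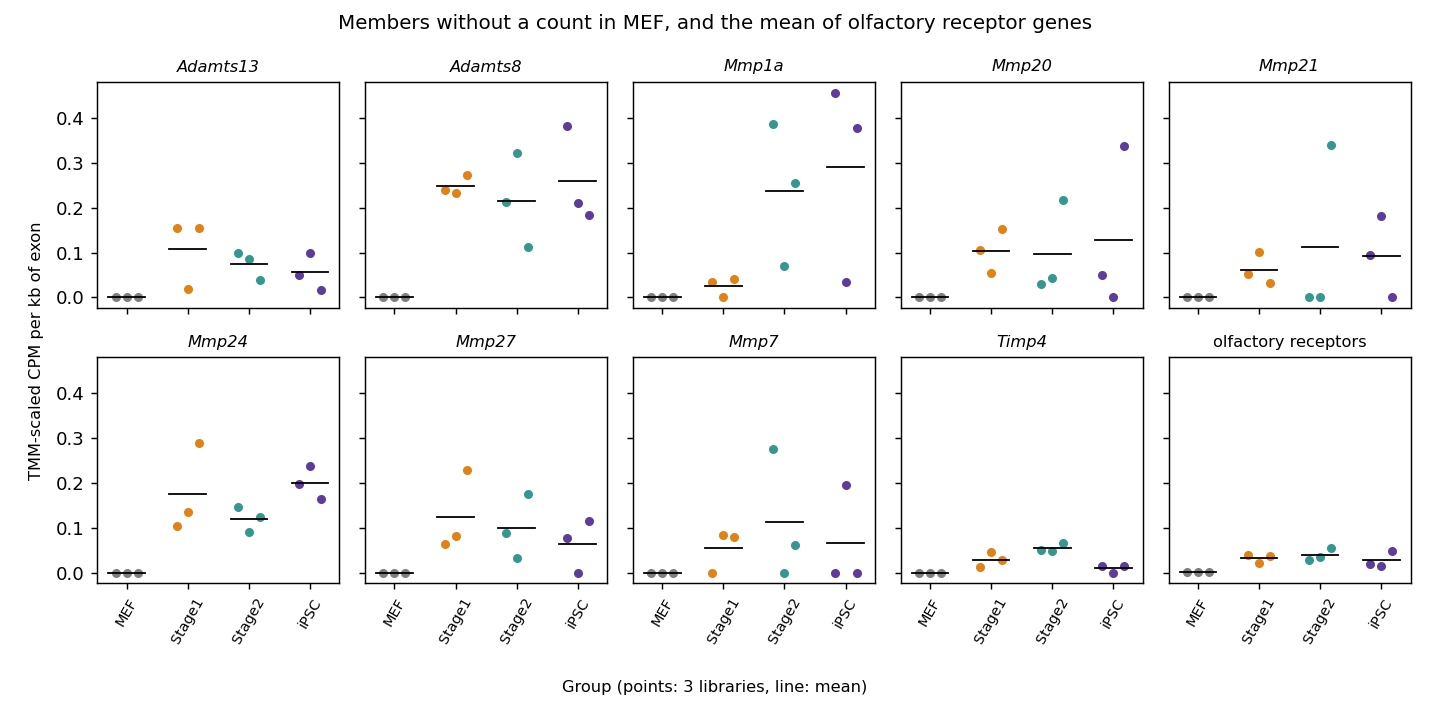
Level in CPM per kilobase of exon, by stage, of the 9 genes without a count in MEF and of the mean over 1088 olfactory receptor genes. Points are libraries and lines the means of 3. The olfactory mean is 0.00166 to 0.00178 in the MEF libraries and 0.0214 to 0.0382 at Stage1, and Adamts8 lies above it in every later library.

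Genes that act on these proteases were also followed. Of 16 tested activators and other inhibitors, 11 were lower at Stage1 than in MEF and 4 were higher, and at Stage2 against Stage1 8 were higher and 1, Pcsk7, was lower. Their median log2 fold change was -3.43 at Stage1 against MEF and 0.81 at Stage2 against Stage1, against 0.27 and 0.02 over all genes tested. Of all genes tested, 36.1% were lower and 44.2% higher at Stage1 than in MEF. At Stage2, 20.6% were higher and 19.8% lower than at Stage1. Furin, which activates Mmp11 and Mmp14 among others, averaged 2.30 ± 0.792 CPM at Stage1 against 183 ± 14.8 CPM in MEF. Reck, a membrane-anchored inhibitor of several Mmps, averaged 1.83 ± 0.287 against 19.2 ± 6.82 CPM in the same groups. The genes called higher at Stage1 were A2m, Pcsk6, Spock1 and Spock2. A2m, a broad trap for proteases, averaged 148 ± 21.7 CPM at Stage2 against 2.05 ± 0.944 CPM at Stage1 (6.14 ± 0.29) and was lower in iPSC than at Stage2 (-1.07 ± 0.22).

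Among 10 membrane Adam proteases, 8 were lower and 2 higher at Stage1 than in MEF, with a median log2 fold change of -1.62. Of all genes tested, 36.1% were lower and 44.2% higher in that comparison. Adam17, the sheddase that Timp3 blocks, averaged 89.0 ± 3.45 CPM at Stage1 against 37.8 ± 6.82 CPM in MEF, and Adam12 averaged 0.988 ± 0.322 against 235 ± 45.4 CPM. At Stage2 against Stage1, 3 of the 10 were higher and 2 lower, against 20.6% and 19.8% of all genes tested. Of 18 substrates and partners of Adamts and Adamtsl proteins, 12 were lower and 3 higher at Stage1 than in MEF, and at Stage2 against Stage1 12 were higher and 6 were not called. Their medians in these comparisons were -2.51 and 1.55. In iPSC against Stage2, 1 was higher and 6 were lower, where 9.21% and 8.87% of all genes tested were. Those lower were Col1a1, Col1a2, Col3a1, Fbn1, Vcan and Vwf, and the 1 higher was Ncan. Col1a1, Col1a2 and Col3a1 also belong to the fibroblast marker list.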

How the data were processed

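RNA of 12 mouse libraries was isolated with a miRNeasy Mini column and sequenced from Illumina libraries, per the labels' protocols. The deposited files hold raw counts, whole reads per gene symbol as HTSeq gives them, with no normalisation. Per the submitters' processing notes, TopHat2 2.0.9, Bowtie2 2.2.6, SAMtools 0.1.19, HTSeq 0.5.4p3 and DESeq2 1.12.4 were used with mm10. The annotation version and the strand setting of the counting are not given in the sources used here. The summary lines of the counts stayed out of all tests, and reads assigned to more than 1 gene made up 0.466 to 0.750% of reads.

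The members and gene lists were chosen with earlier results of these data known. The 12 libraries were fitted jointly with edgeR 4.0.16 under R 4.3.3. Genes were kept by filterByExpr by group (14770 of 23420) and scaled by the trimmed mean of M values (TMM), and a robust quasi-likelihood test gave each comparison, with Benjamini-Hochberg adjustment over all genes tested. The common biological coefficient of variation was 0.190. The SE was derived from the test, by dividing the size of the log2 fold change by the root of its F statistic. Levels are TMM-scaled CPM. A count of 0 allows up to 3 counts, or 0.181 to 0.376 CPM in a library, and over a group 3 counts served as the floor of folds. Intervals are 95% and cover counting error only. Values in every library are given for genes with a group mean of at least 10 CPM and for the 3 called genes with the largest log2 fold change in each direction of each comparison. Other genes are given by counts, means or ranges, and genes outside the families come from the lists. Positions are GENCODE vM21 gene spans (GRCm38, the mm10 build).

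The test was checked on simulated data with 200 changed genes among 14770 for each comparison. No 2 libraries of a group agreed within sampling noise. Alternatives were RLE size factors, library totals, no filter, a filter of at least 1 CPM in 3 libraries, a fit of the compared groups alone, replicate number as a block, DESeq2 1.42.0, and each library left out in turn.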

Additional observations from a re-analysis of the deposited data

How the results depend on the processing

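Over 19 alternatives (12 that leave out 1 library and 7 others), 0 of the 123 calls on single genes reversed, 104 held in every alternative that could be computed and 19 were lost in some, while 14 of the 92 results not called were gained in some. The count higher at Stage1 than in MEF (6) was 10 with no filter and 3 in a fit of the 2 groups alone. The count lower at Stage2 than at Stage1 (4) was 2 with library totals and 2 to 4 with a library left out. The count lower in iPSC than at Stage2 (3) was 6 in a fit of the 2 groups alone, 5 with DESeq2 and 2 to 6 with a library left out. The count lower in iPSC than at Stage1 (5) was 2 to 5 with a library left out. The cause of these moves was not tested. Counts lower than in MEF were 30 to 32 at Stage1 and 29 to 31 in iPSC over the libraries left out. Library totals moved the median log2 fold change of all genes by 0.18 at Stage1 against MEF, 0.20 at Stage2 against Stage1, -0.10 in iPSC against Stage2, 0.10 in iPSC against Stage1 and 0.28 in iPSC against MEF.

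Equal replicate numbers were not treated as pairs, since the labels do not say that a number marks a shared culture or animal. Of 18 correlations of the deviations of same-numbered libraries, 3 exceeded 0.1. Among Stage1, Stage2 and iPSC all 9 correlations were positive (0.0107 to 0.197), and a library correlated best with its own number in 16 of 18 cases, where chance gives 6. Each pair of same-numbered libraries enters these cases from both sides. In pairs with MEF the correlations ran from -0.0675 to 0.05, and the own number was best in 4 of 18. This hint of shared numbers outside MEF comes from the data, not from the design. With the replicate block, 6 genes were higher and 32 lower at Stage1 against MEF, 18 and 4 at Stage2 against Stage1, 3 and 2 in iPSC against Stage2 (Adamts9 was not called), 15 and 5 in iPSC against Stage1, and 7 and 31 in iPSC against MEF. Depth limits the genes near or below 1 CPM, where a single read in a library weighs on the value.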
